A study of Mus musculus with 20 samples.

Results

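The genes described here are 9 genes of the neutrophil: the alarmins S100a8 and S100a9, the granule genes Ngp, Camp, Ltf, Mpo and Elane, and the receptors Csf3r and Cxcr2. They were taken by gene symbol, and 12 of the 44290 array probes carry one of these symbols (9 of 19087 named genes). Ltf, Cxcr2 and Mpo have 2 probes each. The set was chosen by the log ratios of these same arrays, for a rise from naive to diseased cord in both genotypes, unlike macrophage genes. Differences between naive and diseased mice are therefore given below as a description, without a test.

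The study asked how blocking NF-kappaB signalling in astrocytes changes gene expression in mouse spinal cord during EAE (experimental autoimmune encephalomyelitis), in which immunised mice develop inflammation and demyelination of the cord. Total RNA of female C57BL/6 mice was compared on 20 two-colour arrays, 1 animal per dye. The labels give an age of 60 days for every array. For mice taken 80 days after induction this cannot be the age at which the cord was taken. The age of each group when taken is thus not known, and the part of age in differences between times was not tested. Transgenic (TG) mice carried GFAP-IkappaBalpha-dn, a dominant negative inhibitor driven by the promoter of Gfap, which is active mainly in astrocytes and not in neutrophils. Wild type (WT) mice were their littermates. The EAE mice of both genotypes had received MOG(35-55) peptide (150 ug a dose) in complete Freund's adjuvant and pertussis toxin (500 ng a dose), and were taken 10, 17 or 80 days post-induction (dpi). The remaining mice of both genotypes were naive, and no group given adjuvant and toxin alone was analysed here. Each of the 8 groups held 3 animals, except WT at 17 dpi, for which the labels name animals 1 and 4 only.

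Of the 20 arrays, 14 set a TG against a WT animal of one time (naive 3, 10 dpi 4, 17 dpi 3 and 80 dpi 4). The other 6 set 2 times of a single genotype against each other, with 1 array for each such pair. No array links 10 dpi to another time, so no level against naive cord can be given for 10 dpi. All values are log2 ratios as deposited, or fitted log2 fold changes with 1 standard error (SE). The file does not state which dye is the numerator, and a working direction was used: TG over WT and EAE over naive. The arrays that set 80 against 17 dpi were read in the order of their titles, TG as 80 over 17 dpi and WT as 17 over 80 dpi. The WT array is given below with its deposited sign turned, as 80 over 17 dpi. A ratio holds no signal level, so a gene too dim to be measured cannot be told from one with an equal level in both animals. Each array gave 43710 to 43894 values, and precision is limited by how many arrays there are. At 17 dpi the array that pairs TG 3 with WT 4 stood apart from the rest, with an SD over probes of 1.07 against 0.286 to 0.73 on the other arrays.

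Neutrophils are short-lived phagocytes that are made in bone marrow and carry their weapons ready-made in granules. Primary granules, with myeloperoxidase (Mpo) and neutrophil elastase (Elane), are filled early in the marrow. Secondary granules, with lactoferrin (Ltf), cathelicidin (Camp) and neutrophilic granule protein (Ngp), are filled later. S100a8 and S100a9 form calprotectin, a calcium- and zinc-binding complex that fills the neutrophil cytosol and acts on Toll-like receptor 4 once released. Csf3r is the receptor for G-CSF, the growth factor of the lineage, and Cxcr2 is the chemokine receptor by which neutrophils follow CXCL1 and CXCL2. In EAE, neutrophils are known to enter the cord around onset. In bulk cord RNA, more neutrophils and more RNA per neutrophil cannot be told apart.

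The members that changed most lie on chromosomes 3 and 9. On GRCm38.p6, S100a8 is at chr3:90669071-90670034 and S100a9 at chr3:90692630-90695721, 22.6 kb apart. Camp is at chr9:109847377-109849456 and Ngp at chr9:110419808-110423012, 570.4 kb apart, and Ltf lies at chr9:111019292-111042766, 596.3 kb beyond Ngp. The promoters of the members with the highest ratios and of Ltf, which shares their chromosome but not their size of change, are shown because these genes share a cell type and differ in how far they moved. Each is the RefSeq sequence of the 150 bases before the gene start on the gene's strand. Capitals mark every match, on either strand, to TTGCNNAA, a core form of the C/EBP element used in granulocyte genes, or to a loose form of the NF-kappaB element (GGG, any 5 bases, CC), and on the gene's strand to TATAAA.
S100a8 promoter (chr3:90668921-90669070, plus strand): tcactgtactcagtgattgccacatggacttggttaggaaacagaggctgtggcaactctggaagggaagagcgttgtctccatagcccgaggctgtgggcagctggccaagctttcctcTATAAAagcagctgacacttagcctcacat
S100a9 promoter (chr3:90695722-90695871, minus strand): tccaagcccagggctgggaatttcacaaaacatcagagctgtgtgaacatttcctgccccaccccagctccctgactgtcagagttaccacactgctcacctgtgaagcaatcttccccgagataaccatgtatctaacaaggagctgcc
Ngp promoter (chr9:110419658-110419807, plus strand): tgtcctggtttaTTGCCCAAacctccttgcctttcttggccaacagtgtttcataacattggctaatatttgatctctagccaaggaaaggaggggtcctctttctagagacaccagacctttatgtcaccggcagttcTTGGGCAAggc
Camp promoter (chr9:109849457-109849606, minus strand): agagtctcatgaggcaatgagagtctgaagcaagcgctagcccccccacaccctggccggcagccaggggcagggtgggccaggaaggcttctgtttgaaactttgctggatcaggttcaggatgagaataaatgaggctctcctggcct
Ltf promoter (chr9:111019142-111019291, plus strand): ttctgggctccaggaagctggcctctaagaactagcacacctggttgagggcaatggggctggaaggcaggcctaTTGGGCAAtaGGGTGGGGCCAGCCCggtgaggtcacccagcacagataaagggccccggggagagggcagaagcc
Of all 32851 promoters of this length in the RefSeq table, 5.46% hold TTGCNNAA, 35.4% hold the NF-kappaB form and 4.84% hold TATAAA. The Ngp window had 2 C/EBP matches, beginning at -138 and -11 from the start, and the Ltf window had 1, at -75. S100a8 had a TATAAA at -30. The NF-kappaB form was found 3 times in the Ltf window, where its matches overlap, and once each in the windows of Csf3r, Cxcr2 and Mpo, which are not shown. These letters were not in the windows of S100a9 and Camp, nor in that of Elane.

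The alarmins had by far the highest ratios of diseased over naive cord among the members. S100a8 stood at 3.61 on the array of WT at 17 dpi over naive and at 4.97 for WT at 80 dpi. In TG mice it stood at 4.87 at 17 dpi and 4.11 at 80 dpi. All 4 ratios lay above every TG over WT ratio of the gene, which ran from -0.30 to 2.09. S100a9, its partner in calprotectin, was at 3.08 and 2.74 in WT and at 3.28 and 2.81 in TG mice at 17 and 80 dpi. These 4 ratios too lay above all of its TG over WT ratios, of which the highest was 2.40. From all arrays the fit put S100a8 at 3.59 ± 0.44 in WT and 4.20 ± 0.44 in TG mice at 17 dpi, about 12.1-fold in WT. By 80 dpi the fitted fold change was 4.82 ± 0.43 in WT and 4.95 ± 0.43 in TG mice. S100a9 was lower throughout on this scale of change, at 1.97 ± 0.51 and 2.94 ± 0.51 at 17 dpi and 3.49 ± 0.50 and 3.51 ± 0.50 at 80 dpi. The WT 17 dpi value of S100a9 leaned on 1 animal: without WT naive animal 2 it was 1.03. With each animal left out in turn, S100a8 ran from 3.17 to 3.95 in WT and from 3.40 to 4.59 in TG mice at 17 dpi.

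In the fit the alarmins stood higher at 80 dpi, in the chronic phase, than at 17 dpi, by 1.23 ± 0.44 (S100a8) and 1.52 ± 0.50 (S100a9) in WT and by 0.75 ± 0.43 and 0.57 ± 0.50 in TG mice. With each animal left out in turn, these differences stayed above 0, down to 0.78 and 0.83 in WT and 0.38 and 0.12 in TG mice. The lowest came without WT 17 dpi animal 1 for S100a8 and without WT 80 dpi animal 13 for S100a9, in both genotypes. The direct arrays over naive do not all share that order, since S100a9 in WT and both genes in TG mice had the higher ratio at 17 dpi. On the array of WT animal 13 at 80 dpi and WT animal 1 at 17 dpi, the deposited values were -1.90 for S100a8 and -2.42 for S100a9. Read in title order, as 17 over 80 dpi, they stand for 1.90 and 2.42 as 80 over 17 dpi. No alternative turned this array. On the matching TG array, of animals 21 and 1, S100a8 stood at 0.76 and S100a9 at 1.11. As read here all 4 values of 80 over 17 dpi are above 0. The median of 11 skeletal muscle genes was 2.68 on that TG array and 2.22 on the array of TG 80 dpi animal 27 over naive. It was -0.22 on the array of WT 80 dpi over naive. The part of tissue makeup in these ratios was not tested. Ordered by fitted level against WT naive, S100a8 ran from WT naive (0) through TG naive (0.26), WT 17 dpi (3.59), TG 17 dpi (4.46) and WT 80 dpi (4.82) to TG 80 dpi (5.21). The SE of each level against WT naive is drawn in the plot of group levels. The order of S100a9 was the same, with levels of 0.37, 1.97, 3.31, 3.49 and 3.88 above WT naive.

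The secondary granule genes split by time. Ngp stood at 1.25 on the array of WT at 17 dpi over naive and at 1.75 for WT at 80 dpi. In TG mice it stood at 0.18 at 17 dpi and 1.64 at 80 dpi. Camp, whose product is cut into an antimicrobial peptide, was at 1.92 and 1.69 in WT and at 0.27 and 1.20 in TG mice. For both genes the TG array at 17 dpi was the lowest of the 4. On the arrays of 80 and 17 dpi, with the sign of the WT array turned, Ngp stood at 2.54 in WT and 1.54 in TG mice, and Camp at 2.05 and 1.13. For both genes that WT array was the highest of the 6 within a genotype. The fitted 80 dpi over naive change of Ngp was accordingly 1.98 ± 0.39 in WT and 2.12 ± 0.39 in TG mice, and that of Camp 1.90 ± 0.46 and 1.82 ± 0.46. At 17 dpi the fitted values were -0.11 ± 0.39 and 0.83 ± 0.39 for Ngp and 0.42 ± 0.47 and 0.95 ± 0.47 for Camp. The direct WT array at 17 dpi, at 1.25 and 1.92, lay well above these fitted WT values, which also draw on the links through 80 dpi and TG mice. Whether Ngp and Camp stood above naive in WT cord at 17 dpi therefore depends on which arrays are used. It also depends on the animals: without WT 17 dpi animal 1 the fitted WT values were -1.16 for Ngp and -1.33 for Camp, and the TG values 0.28 and 0.33. Without WT naive animal 2 they were -0.96 and -0.68 in WT and 0.34 and 0.40 in TG mice. Without TG 17 dpi animal 1 Ngp stood at 0.32 in WT and 1.71 in TG mice, and Camp at 0.87 and 1.87. The values at 80 dpi moved less, from 1.57 to 2.43 for Ngp and from 1.34 to 2.31 for Camp over both genotypes.

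Ltf moved far less than Ngp and Camp. Its probe 43904 stood at 0.29 and 0.57 in WT and at 0.08 and 0.65 in TG mice, and its probe 22125 at 0.77 and 0.41 in WT and at -0.01 and -0.05 in TG mice. In the fit at 80 dpi probe 43904 stood at 0.69 ± 0.26 in WT and 0.80 ± 0.26 in TG mice, and probe 22125 at 0.22 ± 0.14 and 0.32 ± 0.14. Without WT 17 dpi animal 1 the WT values of the probes were 0.45 and 0.12. Csf3r was higher in WT EAE than in naive cord, at 1.26 on the 17 dpi array and 0.52 on the 80 dpi array. In TG mice it stood at 0.23 and 0.00. Its fitted WT change was 0.81 at 17 dpi and 0.64 at 80 dpi, and dropped to 0.51 without WT naive animal 2 and to 0.42 without WT 17 dpi animal 1. The fitted TG change of Csf3r was 0.37 ± 0.18 at 17 dpi and 0.21 ± 0.17 at 80 dpi. The primary granule genes stayed near 0: the ratios of Mpo and Elane over naive ran from -0.33 to 0.17 on the 4 arrays. The 2 probes of Cxcr2 did not share a pattern. Probe 33062 was at 1.37 on the WT 17 dpi array and between -0.22 and 0.37 on the others, and probe 21536 ran from -0.24 to 0.28.

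Values well above naive in both genotypes were thus those of S100a8 and S100a9 at both times, of Ngp and Camp at 80 dpi and, to a smaller size, of Ltf probe 43904 at 80 dpi. They restate the choice of the set, and the working direction itself rests partly on these genes. Over the 12 probes the median fitted change from naive was 0.06 in WT and 0.37 in TG mice at 17 dpi, and 0.43 and 0.26 at 80 dpi. The medians of all probes lay between -0.03 and 0.02 in these comparisons.

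**Figure D1:**
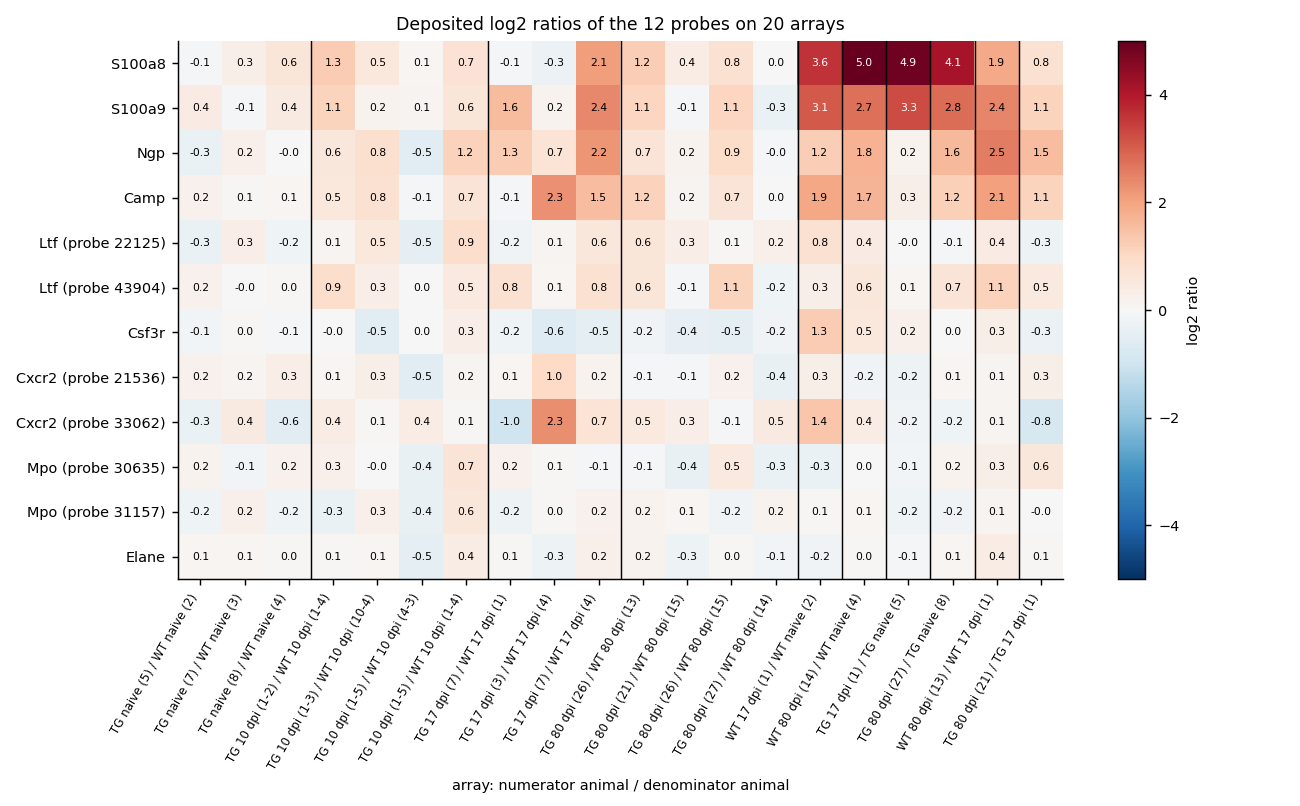
Deposited log2 ratio of each of the 12 probes (vertical axis) on each of the 20 arrays (horizontal axis, numerator animal over denominator animal, black lines between kinds of array). S100a8 and S100a9 are above 2.7 on all 4 arrays of EAE over naive, while Mpo and Elane stay between -0.5 and 0.7 on all arrays.

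**Figure D2:**
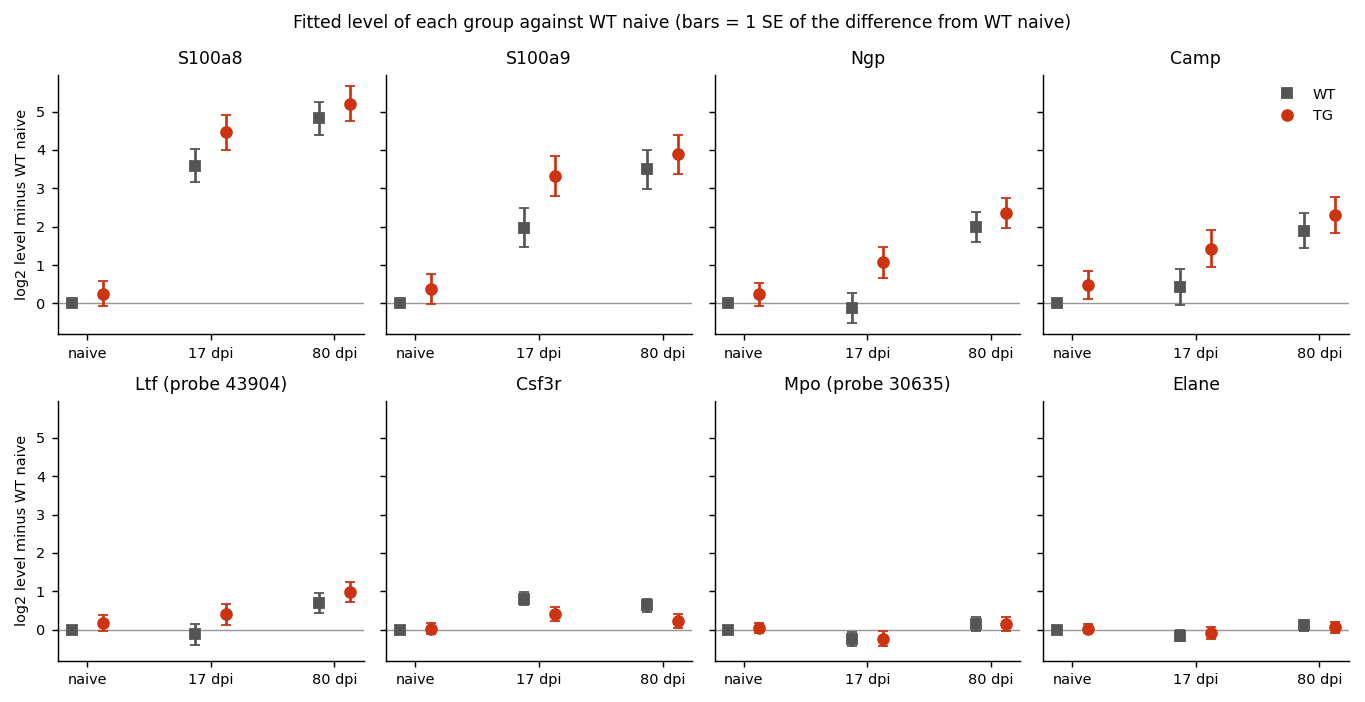
Fitted log2 level of each group minus WT naive for 8 probes, with WT as squares, TG as circles and bars of 1 SE of the difference from WT naive. S100a8 and S100a9 are high at 17 and 80 dpi in both genotypes, Ngp and Camp mainly at 80 dpi, and Mpo and Elane stay near 0.

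TG and WT mice were compared by a moderated t-test on all arrays, with variances moderated in limma and with a dye term. The p-values were adjusted over all probes by the Benjamini-Hochberg method. Since the set was chosen with these arrays in view, these tests are no independent evidence. Arrays that share an animal counted almost as independent in the fit, so SEs and p-values measure mainly the spread among arrays. In naive cord, none of the 12 probes passed at an adjusted p under 0.05, and none had an unadjusted p under 0.05 (0 members). The share of all 43803 probes that passed was 0%, and 462 had an unadjusted p under 0.05. The naive ratios of S100a8 were -0.06, 0.29 and 0.59, and those of S100a9 0.43, -0.07 and 0.45. Each set straddles 0. Ngp was at -0.31, 0.24 and -0.03, and Camp at 0.23, 0.06 and 0.08. For S100a8 the fitted difference was 0.26 ± 0.34, with a 95% interval from -0.46 to 0.97.

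At 10 dpi none of the 12 probes passed the test. Among all probes 0.0274% passed (12 of 43799), and 2868 had an unadjusted p under 0.05. The arrays, in the order TG 1-2 with WT 1-4, TG 1-3 with WT 10-4, TG 1-5 with WT 4-3 and TG 1-5 with WT 1-4, gave S100a8 at 1.27, 0.52, 0.11 and 0.73. In that order S100a9 was at 1.11, 0.19, 0.14 and 0.59. As read here all 8 of these values are above 0. Ngp was at 0.56, 0.81, -0.52 and 1.16 and Camp at 0.53, 0.76, -0.08 and 0.66, each below 0 as read here on the array of TG 1-5 and WT 4-3. The direction of the last array, of TG 1-5 and WT 1-4, is not settled by the dye check. A set of 491 probes without a gene symbol was picked for 1 dye sign on all 4 arrays as read here. Probes that share a sign with this array alone turned were not counted, so the set cannot settle its direction. The skeletal muscle genes below were high on both arrays of TG 1-5 only as read here. With the last array read the other way, S100a8 stands at -0.73 on it, S100a9 at -0.59, Ngp at -1.16 and Camp at -0.66. The fitted difference was 0.66 ± 0.33 for S100a8 (adjusted p = 0.822) and 0.51 ± 0.29 for Ngp (adjusted p = 0.921). With that array turned they were 0.37 ± 0.45 and 0.03 ± 0.41. Of the members, only the Ltf probes had an unadjusted p under 0.05, at 0.27 ± 0.11 for probe 22125 and 0.44 ± 0.20 for probe 43904 (adjusted p = 0.604 and 0.741). With the array turned, probe 22125 was at -0.09 and probe 43904 at 0.24. Skeletal muscle genes moved with 1 animal here. The median of 11 such genes was 3.47 and 3.14 on the arrays of TG animal 1-5, against -0.24 and -0.20 on the other two. The part of tissue makeup in the member ratios was not tested.

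At 17 dpi S100a9 and Ngp were called higher in TG than in WT cord as the arrays are read here. Neither passed once the 10 dpi array of TG 1-5 and WT 1-4 was turned. On the arrays of TG 7 with WT 1, TG 3 with WT 4 and TG 7 with WT 4, S100a9 stood at 1.59, 0.19 and 2.40. Ngp stood at 1.27, 0.69 and 2.22. Both genes were above 0 on 3 of 3 arrays, and highest on the array of TG 7 and WT 4. The fitted difference of S100a9 was 1.34 ± 0.39 (adjusted p = 0.0344) and that of Ngp 1.19 ± 0.30 (adjusted p = 0.018). No other member passed, so 2 of 12 probes were called higher, where 4.56% of all 43802 probes were called higher, 8.44% lower and 13.0% in either direction.

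The partners of these genes did not pass. S100a8 was at -0.07, -0.30 and 2.09 on the same arrays, below 0 on 2 of the 3, with a fitted difference of 0.86 ± 0.34 (adjusted p = 0.106). Camp was at -0.06, 2.28 and 1.53, with a fitted 1.01 ± 0.36 (adjusted p = 0.0782). The calprotectin partners thus differed on the array of TG 7 and WT 1, where S100a9 was at 1.59 and S100a8 at -0.07. Ltf probe 43904 was at 0.77, 0.11 and 0.78 (fit 0.53 ± 0.20, adjusted p = 0.103) and probe 22125 at -0.19, 0.12 and 0.58. Csf3r was the only member on the other side of 0 in the fit, at -0.21, -0.64 and -0.46 on the arrays and -0.41 ± 0.14 in the fit (adjusted p = 0.0613). Cxcr2 probe 33062 stood at -1.0, 2.33 and 0.69, its highest on the array of TG 3 and WT 4 that had the widest spread, and its fitted 0.54 ± 0.37 did not pass. Mpo and Elane differed little, from 0.02 to 0.07 in the fit, and the 95% interval of Elane ran from -0.16 to 0.30.

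The 17 dpi calls rest on few animals. They also did not pass with 1 array turned against the reading that the muscle genes go with. With the 10 dpi array of TG 1-5 and WT 1-4 turned, which enters through the shared dye term and spread, S100a9 was at 1.25 ± 0.50 (adjusted p = 0.153) and Ngp at 1.07 ± 0.43 (adjusted p = 0.155), and 2818 of all probes passed in place of 5698. TG animal 7 is on 2 of the 3 arrays, and without it the difference was 0.61 for S100a9 (adjusted p = 0.419) and 0.57 for Ngp (adjusted p = 0.312). TG animal 3 is only on the array with the widest spread, and without it S100a9 was at 1.73, Ngp at 1.26 and S100a8 at 1.20, all 3 passing (adjusted p = 0.0132, 0.0307 and 0.0411), while Camp dropped to 0.49. Camp turned on the WT mice: leaving out WT 4 gave 0.07, and leaving out WT 1 gave 1.90 (adjusted p = 0.00199). Without WT animal 4, Ngp stood at 0.87 and did not pass (adjusted p = 0.204). Over the 23 fits that each left out 1 animal, S100a9 passed in 9 and Ngp in 16, and neither difference fell below 0. Fitted on the 3 arrays of this comparison alone, with 1 residual degree of freedom, S100a9 was at 1.65 and Ngp at 1.60, and 0 of all probes passed. Read in the order of the array titles in place of the working direction, S100a9 was at 0.53 and Ngp at 0.06, and neither passed (adjusted p = 0.73 and 0.962). Without a dye term S100a9 passed and Ngp, at 1.12, did not (adjusted p = 0.0629).

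**Figure D3:**
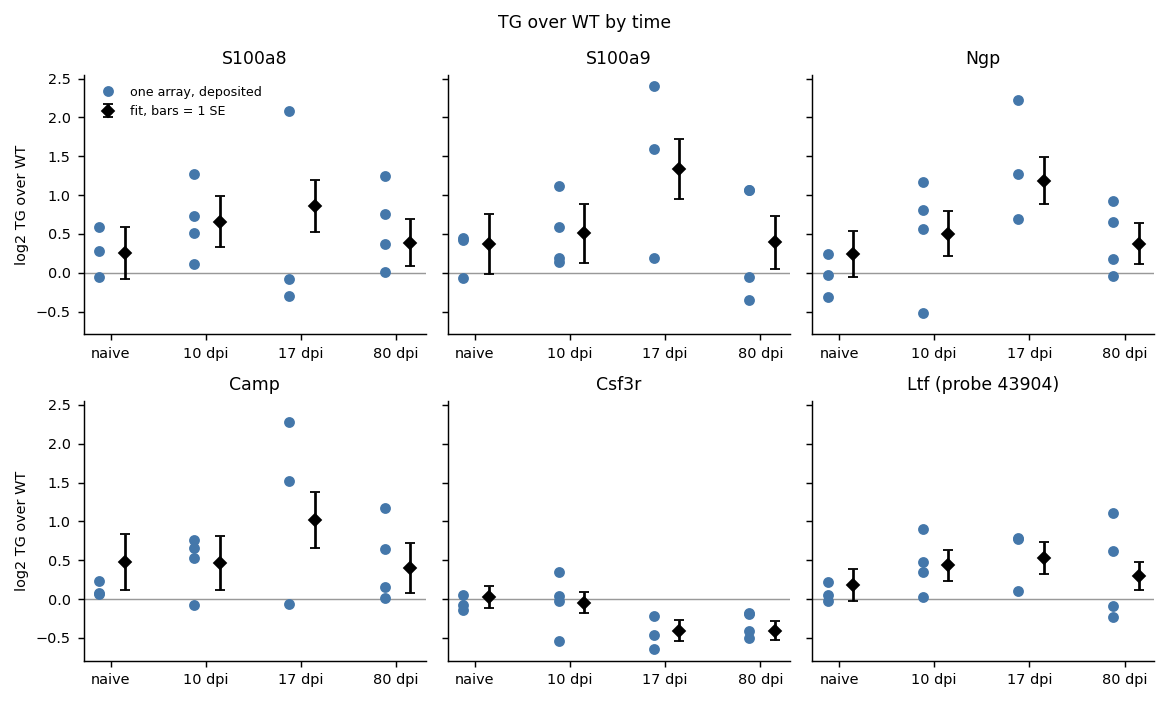
TG over WT at each time for 6 probes, with the deposited log2 ratio of each array as circles and the fitted log2 fold change as diamonds with bars of 1 SE. S100a9 and Ngp have all 3 of their 17 dpi arrays above 0, S100a8 and Camp do not, and Csf3r lies below 0 on all arrays at 17 and 80 dpi.

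**Figure D4:**
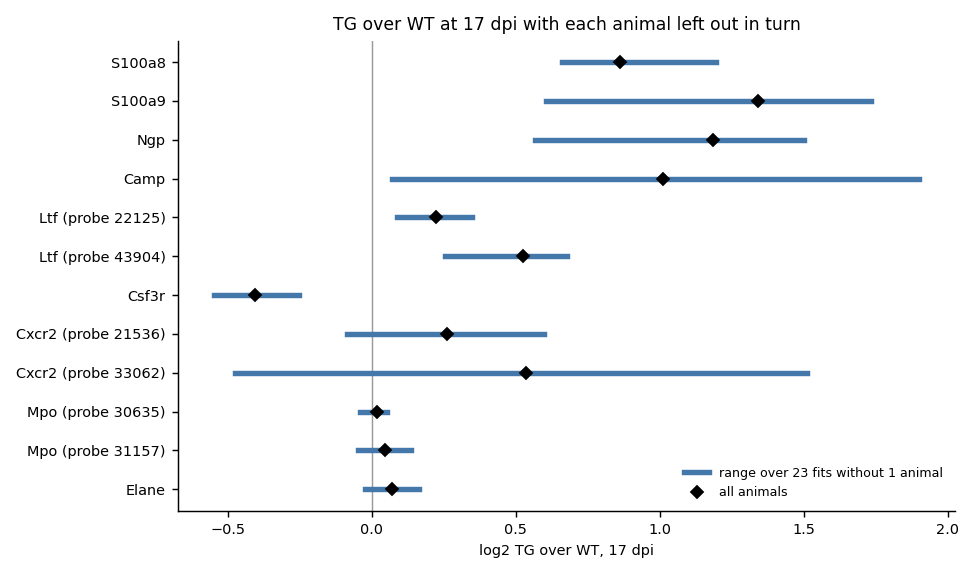
Fitted log2 TG over WT at 17 dpi for each probe with all animals (diamonds) and its range over the 23 fits without 1 animal (lines). S100a9 runs from 0.61 to 1.73, Camp from 0.07 to 1.90 and Cxcr2 probe 33062 from -0.48 to 1.51.

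At 80 dpi no member probe passed, where 1.66% of all 43805 probes did and 3419 had an unadjusted p under 0.05. The arrays of TG 26 with WT 13, TG 21 with WT 15, TG 26 with WT 15 and TG 27 with WT 14 gave S100a8 at 1.24, 0.37, 0.76 and 0.01. S100a9 was at 1.06, -0.06, 1.07 and -0.35. For both genes the arrays of TG animal 26 were the highest. Ngp, at 0.65, 0.18, 0.93 and -0.04, and Camp, at 1.17, 0.15, 0.65 and 0.01, had the same arrays on top. The fitted differences of these 4 genes lay between 0.37 and 0.40, with SEs of 0.27 to 0.34. Csf3r was again lower in TG mice, at -0.17, -0.41, -0.51 and -0.19, below 0 on 4 of 4 arrays, and its fitted -0.41 ± 0.12 was the only member difference with an unadjusted p under 0.05 (adjusted p = 0.147). The muscle genes had medians of 2.24 and 1.74 on the arrays of TG animals 21 and 27, on which the alarmins were lowest, and of 0.05 and -0.21 on those of TG animal 26. Their part in the member ratios was not tested.

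Whether the TG and WT difference itself changed with time was tested for each probe. None of the 36 differences (12 probes, 3 pairs of times) passed, where 2.18%, 0.256% and 1.64% of all probes did for 17 against 10, 80 against 10 and 80 against 17 dpi. The largest for the called genes were those of 80 against 17 dpi, at -0.95 ± 0.48 for S100a9 (adjusted p = 0.37) and -0.81 ± 0.38 for Ngp (adjusted p = 0.321). A genotype difference limited to 17 dpi is therefore not shown. The fitted median over the 12 probes was above that of all probes at every time, at 0.18, 0.24, 0.39 and 0.16 in naive, 10, 17 and 80 dpi cord against 0.00, 0.00, 0.04 and 0.01. The member probes above 0 numbered 11, 10, 11 and 9 of 12, where 51.2%, 51%, 57% and 52.7% of all probes were above 0. The fitted naive, 17 and 80 dpi values also draw on the EAE over naive arrays by which the set was chosen. In naive cord Ngp was fitted at 0.24 with 1 of its 3 arrays above 0. The probes also share a cell type, so these counts are a description and no repeated evidence.

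Genes that share the neutrophil's granules or surface with the members were taken from lists that were also drawn up with earlier results of these data known. Of 13 other granule and granulopoiesis genes measured, 0 rose and 5 fell in TG against WT cord at 17 dpi (median 0.01). Hp, haptoglobin, which binds free haemoglobin, fell by 2.85 on the log2 scale (SE 0.30, adjusted p = 3.63e-05), with array values of -2.44, -2.63 and -3.04. Chil3, a chitinase-like protein of neutrophils and macrophages, fell by 2.78 (SE 0.24, adjusted p = 1.14e-05). Lcn2, an iron-siderophore binder of granules that reactive astrocytes also make, fell by 1.99 (SE 0.36, adjusted p = 0.00245), and Mmp8, neutrophil collagenase, fell by 1.52 (SE 0.35, adjusted p = 0.0104). All 3 arrays were below 0 for Hp, Chil3 and Lcn2. Mmp8 was at 0.52 on the array of TG 3 and WT 4. Of the 13 genes, 7 were above 0 in the fit, and none of these passed. The highest moderated t values were those of Padi4 at 0.21 ± 0.07 (adjusted p = 0.0609) and Pglyrp1 at 0.38 ± 0.14 (adjusted p = 0.0919). Prtn3 and Ctsg, primary granule proteases like Elane, lay at 0.15 ± 0.12 and 0.13 ± 0.12. Among granule genes Ngp was thus called higher at 17 dpi and Hp, Chil3, Lcn2 and Mmp8 lower, as was Gfi1, a transcription factor of granulopoiesis.

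Against naive cord these granule genes were called mainly at 17 dpi. In WT mice 5 of the 13 rose and 1 fell from naive to 17 dpi, with Hp at 3.50 ± 0.40 (adjusted p = 7.4e-05) and Chil3 at 2.66 ± 0.31 (adjusted p = 8.16e-05). In TG mice 2 rose, of which Lcn2 was at 1.46 ± 0.48 (adjusted p = 0.0487). The background was 8.38% of probes called higher in WT and 6.86% in TG mice. At 80 dpi none of the 13 passed against naive in either genotype, where 1.09% of all probes passed in WT and 0.0205% in TG mice. In WT mice 4 of the 13 fell from 17 to 80 dpi (3.99% of all probes), Chil3 at -2.73 ± 0.30 (adjusted p = 0.000202) and Hp at -2.14 ± 0.39 (adjusted p = 0.0046). S100a8, S100a9, Ngp and Camp had values of 1.23 ± 0.44, 1.52 ± 0.50, 2.09 ± 0.39 and 1.48 ± 0.47 in that comparison.

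Surface receptors of neutrophils, many of them shared with monocytes, lay mostly on the same side of 0 as Csf3r at 17 dpi. Of 13 measured, 6 fell and 0 rose in TG cord at 17 dpi (median -0.55), with Mcemp1 falling by 1.95 (SE 0.21, adjusted p = 3.43e-05) and Selplg, the ligand of P-selectin, falling by 1.18 (SE 0.10, adjusted p = 1.17e-05). The fitted value was above 0 for 3 of the 13. Among these, Cxcr1 at 0.56 ± 0.26 and Trem1 at 0.17 ± 0.08 did not pass (adjusted p = 0.163 and 0.159). From naive to 17 dpi, 10 of the 13 rose in WT and 2 in TG mice. Ly6g and Fpr1, 2 defining neutrophil genes, were not matched to a probe. Receptors and adaptors of the alarmins fell in 3 of 6 at 17 dpi: Tlr4 at -0.92 ± 0.21 (adjusted p = 0.00919), its co-receptor Ly96 at -0.90 ± 0.11 (adjusted p = 9.54e-05), and Cd36. Among 12 cytokines that recruit neutrophils or drive granulopoiesis and their receptors, 1 rose and 0 fell: Il23a, a subunit of IL-23, at 0.38 ± 0.06 (adjusted p = 0.000732). Cxcl1 and Csf3 were at 0.52 ± 0.30 and -0.07 ± 0.12 and did not pass.

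Other genes of the S100 family were called in both directions. Of 12 measured, 4 fell and 1 rose in TG cord at 17 dpi. S100a6 fell by 1.92 (SE 0.20, adjusted p = 3e-05) and S100a11 by 1.16 (SE 0.12, adjusted p = 3.01e-05). S100b, the astrocyte S100 gene, rose by 0.98 (SE 0.15, adjusted p = 0.000782). In WT mice S100a6 rose from naive to 17 dpi by 2.68 (SE 0.26, adjusted p = 2.91e-05).

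**Figure D5:**
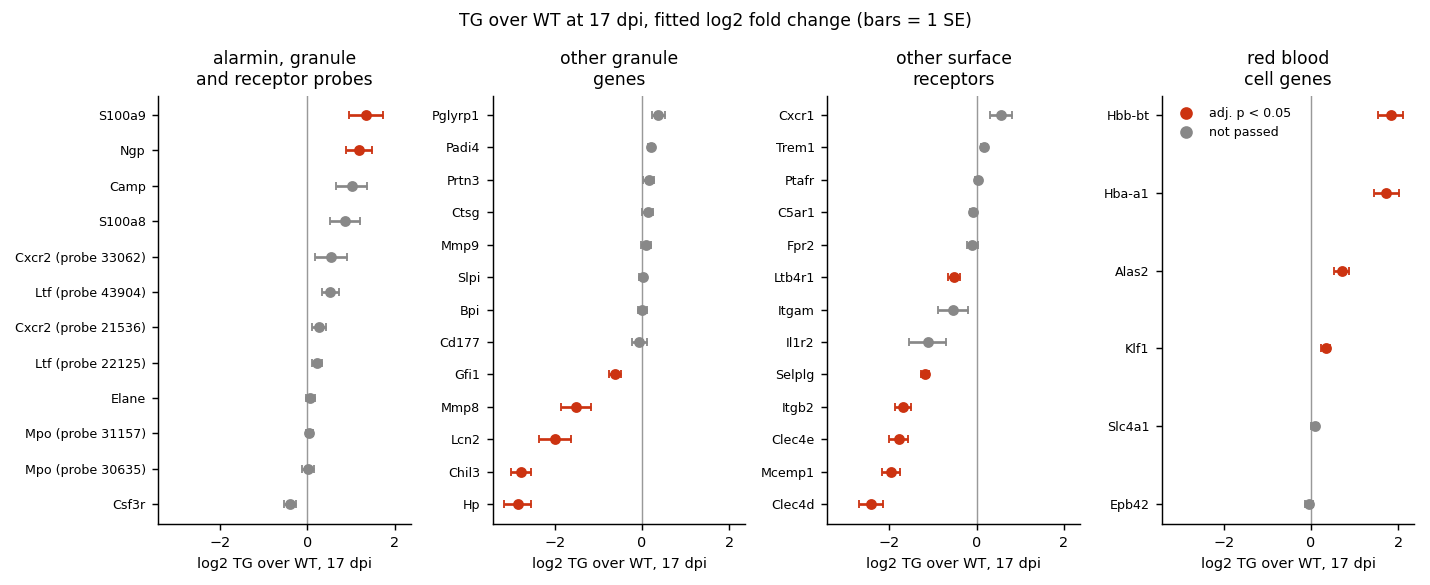
Fitted log2 TG over WT at 17 dpi with bars of 1 SE for the 12 probes of the set, 13 other granule genes, 13 other surface receptors and 6 red blood cell genes, with those at an adjusted p under 0.05 in red. S100a9 and Ngp are called higher, Hp, Chil3, Lcn2, Mmp8 and Gfi1 lower, and 4 of the 6 red cell genes higher.

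Markers of other cells moved at 17 dpi beside the 2 member calls. Macrophage and microglia markers fell in 16 of 21 (median -1.14), with array medians of -1.33, -1.44 and -1.59, and 0 rose. T cell markers fell in 5 of 10. Red blood cell genes rose in 4 of 6 (median 0.52), the haemoglobin genes Hba-a1 by 1.72 ± 0.29 (adjusted p = 0.00126) and Hbb-bt by 1.82 ± 0.28 (adjusted p = 0.000719). The array medians of the red cell list were 0.39, 0.36 and 0.92, highest on the array of TG 7 and WT 4, on which S100a9 and Ngp were also highest. On the TG over WT arrays at 80 dpi the red cell medians were 0.28, 0.70, 0.55 and 0.60. At 10 dpi they were -0.43, -0.03, -1.04 and -0.71 as read here, on arrays where S100a8 and S100a9 were above 0. The part of blood content in the member ratios was not tested. Of 6 platelet genes 0 passed, and of 11 B lineage and marrow progenitor genes 1 rose and 0 fell. The list of 9 eosinophil, basophil and mast cell genes had 1 that rose and 0 that fell.

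The macrophage list was also set against naive cord. It rose in 13 of 21 in WT at 17 dpi (median 1.89) and in 9 of 21 at 80 dpi (median 0.90). In TG mice 3 rose at 17 dpi (median 0.36) and 0 at 80 dpi (median 0.22). The contrast with macrophage genes is part of how the set was chosen, so nothing about the members is read from it. At 80 dpi in TG against WT cord 10 of 21 macrophage markers fell.

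The members were not uniform among themselves. Over the 20 arrays the deposited ratios had an SD of 1.83 for S100a8, 1.39 for S100a9, 1.04 for Ngp and 0.94 for Camp, and of 0.21 for Elane. Pearson's r with the median of the other members was 0.73 for Camp, 0.72 for Ngp, 0.69 for Ltf probe 22125 and 0.21 for Cxcr2 probe 33062. The arrays share animals and a dye effect, so these are descriptions. Outside the set, the probes most like the per-array median of the 12 probes, among 43678 with enough values, were those of Wfdc21 (r = 0.80), Stfa2 (0.78) and Retnlg (0.76), a probe without a gene symbol (0.76) and Tusc1 (0.76).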

How the data were processed

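The authors deposited 1 log2 ratio per probe and array, normalized by global loess within each array and by quantiles between arrays in limma, per the labels' design text. The file names no log base: base 2, limma's default, was taken, with values from -7.44 to 7.79. Background correction is not given in the sources used here. Of 44290 probes, the platform table names 32042 with 1 gene symbol, 47 with several and 12201 with none, and none was named from several.

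These ratios were fitted probe by probe under R 4.3.3, by generalised least squares on all 20 arrays, with group coefficients and a dye term per probe. The fit was written for these data and is not limma's own. The share of variance given to the animals of an array was 0.0078, and arrays sharing an animal were correlated through it. Variances were moderated by empirical Bayes (13 residual and 1.91 prior degrees of freedom), and an adjusted p under 0.05 after Benjamini-Hochberg over all probes is called. Scripts were tested on simulated data. The animal is the replicate of the design, but with so small a correlation arrays that share an animal counted almost as independent. At 17 dpi 5698 probes passed in this fit and 5762 with arrays treated as independent. The SEs and p-values thus measure mainly the spread among arrays, not among animals. A channel without a stated pool was taken as 1 animal.

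Direction was checked on the values, after they were seen. Of 43207 probes complete on all arrays, 3210 had a dye effect of one sign on all 16 arrays outside 10 dpi as read here, and 0 when read in the order of the titles. On the 10 dpi arrays those probes kept that sign in 84.8%, 88.2%, 74.2% and 45.4%, so 1 array there, that of TG 1-5 and WT 1-4, is not settled by them. The skeletal muscle genes go with the reading used for that array. The 491 probes described under other observations were picked under that reading and cannot settle it. The overall sign rests on inflammation genes, members among them, being higher in EAE. It is a working direction.

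All 9 members are named with every probe. Of each other list, counts are given, with examples mainly among the 2 highest and the 2 lowest moderated t values. Other list genes (Lcn2, Mmp8, Gfi1, Prtn3, Ctsg, Cd36, Cxcl1, Csf3) were named after their values were seen. A list gene with several probes stands by the one with most values. The members and lists were chosen with earlier results of these data known. Alternatives were title order, no dye term, independent arrays, arrays scaled to 1 spread, array weights, complete probes, gene means, the comparison's own arrays, each animal left out and, added after seeing the data, a separate dye term at 10 dpi and the unsettled 10 dpi array turned. Figures were drawn with matplotlib 3.10.9.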

Additional observations from a re-analysis of the deposited data

How the results depend on the processing

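The count of member probes called between TG and WT at 17 dpi (2, S100a9 and Ngp) was 0 in title order, 1 (S100a9) without a dye term, 0 on that comparison's 3 arrays alone, 0 with the 10 dpi array of TG 1-5 and WT 1-4 turned, and from 0 to 5 with each animal left out. It was 0 without TG animals 7, 1-2 or 1-5 or WT animals 4, 1-4 or 4-3. The 10 dpi animals act only through the shared dye term and spread. All probes called at 17 dpi numbered 5698, and 0 in title order, 2186 without a dye term, 2901 with scaled arrays, 2818 with that array turned, 9499 with array weights and 3832 by gene. At 10 dpi title order called 1 member probe, Mpo probe 31157 at -0.38. At 80 dpi it called 2, both of Mpo, at 0.32 and -0.19, scaled arrays and array weights each called 1 (Csf3r), and the counts with an animal left out ran from 0 to 1. The naive count stayed 0 in all alternatives run.

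Title order also ends the rise over naive in WT mice: S100a8 was then at -1.13 at 17 dpi and -0.75 at 80 dpi, S100a9 at -1.22 and -0.04, and Csf3r turned to -0.66 at 17 dpi. Ltf probe 22125 turned to -0.013 at 17 dpi and -0.054 at 80 dpi in TG mice on the direct array alone. The causes were not tested. Of the other single-probe values, 3549 kept their direction and side of the threshold or moved within error, 184 moved, 13 came to pass and 28 no longer passed. No paired analysis was possible because array and animal numbers name samples and do not pair groups. With 2 WT animals at 17 dpi and 1 array per step of time within a genotype, the number of animals limits these values.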

Other observations

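A set of 491 probes without a gene symbol lay beyond 2 in size on every 10 dpi array, with one dye sign under the reading used here (0 probes in title order). Their medians as Cy5 over Cy3 were -3.71, -3.82, -3.54 and -3.44 on the 10 dpi arrays and between -0.08 and 0.34 on the 16 others. None of the members is among them. No member probe had an array far from the others at 10 or 80 dpi by Dixon's 95% test over 24 sets of 4 arrays.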
